A study of Sus scrofa with 63 samples.

Results

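Glucocorticoid signalling in the fetal jejunum was followed through 8 genes, the receptors NR3C1 and NR3C2, the cortisol-converting enzymes HSD11B1 and HSD11B2, and the cortisol-responsive genes FKBP5, TSC22D3, PER1 and SGK1. A probe was counted for a gene where the gene name written beside it on the array was that symbol, in any letter case. This gave 23 of the 60305 probes, for 7 of the 8 genes: 4 for NR3C1, 3 for NR3C2, 7 for HSD11B1, 1 for HSD11B2, 5 for FKBP5, 1 for PER1 and 2 for SGK1. The array holds measured probes for 8694 named genes in all. No probe carried the name TSC22D3. A further 2 probes name TSC22D3 in their description and are reported apart from the 23, in a paragraph of their own. All 23 probes were among the 40515 that passed the filter on dim probes.

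RNA came from the jejunum of 63 male fetuses, taken by caesarean at 90 or 110 days of gestation, each hybridised to a one-colour porcine array. Fetuses were purebred Large White (LW), purebred Meishan (MS), LWMS (LW sire, MS sow) or MSLW (MS sire, LW sow), from sows that had been inseminated with semen of both breeds. At day 90 there were 9 LW, 6 MS, 9 LWMS and 8 MSLW fetuses, and at day 110 there were 9, 7, 9 and 6. Meishan piglets survive birth better than Large White piglets, and the design asked which transcripts change with age, which differ between the breeds, and which follow the breed of the sow or of the sire. Age and cortisol supply cannot be told apart in this design. The sow of each fetus was not given in the labels, so litter mates entered as independent fetuses and every p-value measures the spread between fetuses. All fetuses of a litter share their age and the breed of their sow. The p-values for age, sow breed and MS minus LW therefore do not measure the spread between sows and can be too small.

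Cortisol from the fetal adrenal cortex rises toward birth and drives maturation of the lung, liver and gut. Inside a cell, cortisol binds the glucocorticoid receptor NR3C1, which sits in a chaperone complex until hormone binds, then moves to the nucleus and switches target genes on or off. The mineralocorticoid receptor NR3C2 binds cortisol as well as aldosterone, and the amount of active hormone either receptor meets is set inside the cell, where HSD11B1 regenerates cortisol from inactive cortisone and HSD11B2 does the reverse. FKBP5, TSC22D3, PER1 and SGK1 are widely used readouts because the bound receptor acts at their own regulatory regions.

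Levels are log2 intensities minus the 75th percentile of the same array, so 0 is an array's 75th percentile, and the level of 1 probe cannot be set against that of another. A difference with age is day 110 minus day 90, averaged over the 4 genotypes unless a genotype is named. It passed the test at a Benjamini-Hochberg adjusted p of at most 0.01 over all 40515 probes (limma) together with a log2 difference of at least 0.5 either way. The array's percentage of probes well above background ran from 51.2 to 87.6. Of 8 epithelial markers 6 were measured (VIL1 and KRT20 not), with a summed level of 7.23 to 9.22. All 6 of 6 smooth muscle markers were measured, with a summed level of 8.23 to 9.46. Such sums add intensities and are set mainly by the brightest probes. None of 4 pancreas markers and 1 of 5 adrenal cortex markers, CYP17A1, passed the filter.

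One array stood apart. MS fetus 632 at day 110 exceeded every other array by more than 1 log2 unit at 102 of 8575 named genes and lay as far under every other array at 166, where the next array did so at 20 and 37 genes. Among the genes that were high there were the hindgut patterning gene HOXD10 (3.45, against at most -2.28 elsewhere) and the proglucagon gene GCG (3.69, against at most 0.46). This fetus also had the highest level of 63 for HSD11B2, PER1 and all 3 NR3C2 probes, and the lowest for both SGK1 probes, 3 of 4 NR3C1 probes and 4 of 7 HSD11B1 probes. Whether its sample came from the same stretch of gut as the others was not tested, and neither was its part in the results, so age differences and MS day 110 values of these genes are also given without it.

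With age, 7 of the 23 probes rose and 2 fell. The 7 were all 5 FKBP5 probes, the HSD11B2 probe and the PER1 probe, and the 2 were HSD11B1 probes. Over all probes tested, 13.7% passed for age, 6.12% higher and 7.62% lower at day 110. Neither receptor and neither SGK1 probe passed.

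**Figure D1:**
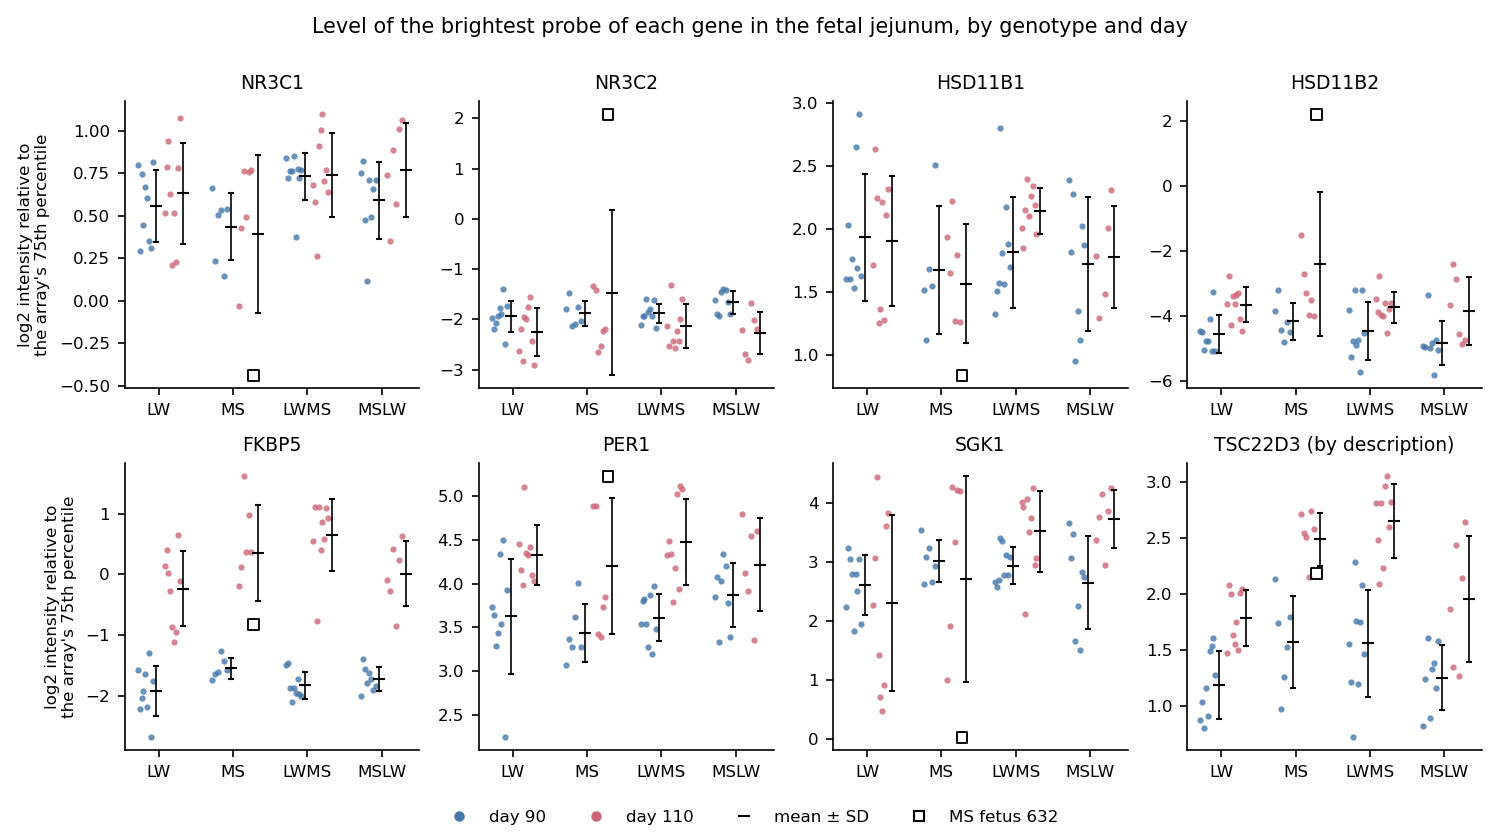
Log2 intensity relative to the array's 75th percentile (vertical axis) of the brightest probe of each gene in the 63 fetuses, by genotype (horizontal axis) and day; points are fetuses, bars are mean ± SD, and the open square is MS fetus 632. At this probe FKBP5 separated the ages completely, at -2.68 to -1.26 at day 90 against -1.12 to 1.61 at day 110. NR3C1 overlapped in every genotype.

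FKBP5, a co-chaperone that lowers the receptor's affinity for hormone and is itself induced by the receptor, had the largest difference with age of the 7 genes. At its brightest probe, A_72_P051286, LW fetuses ran from -2.68 to -1.29 (median -1.91, n = 9) at day 90 and from -1.12 to 0.65 (median -0.11, n = 9) at day 110. MS fetuses ran from -1.75 to -1.26 (median -1.59, n = 6) and then from -0.83 to 1.61 (median 0.37, n = 7). LWMS fetuses ran from -2.10 to -1.46 (median -1.87, n = 9) and then from -0.77 to 1.12 (median 0.85, n = 9). MSLW medians lay between those of the purebreds at both ages, with levels from -2.01 to -1.40 (median -1.75, n = 8) and then from -0.85 to 0.62 (median 0.07, n = 6). All 31 day 110 fetuses were above the highest of the 32 day 90 fetuses.

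The FKBP5 difference with age was 1.95 (SE 0.12), a 3.86-fold rise (adjusted p = 1.3e-19, limma). It was 1.69 in LW, 1.89 in MS, 2.47 in LWMS and 1.74 in MSLW fetuses, and passed in each. Over all probes, 4.77% passed in LW, 3.17% in MS, 9.88% in LWMS and 5.41% in MSLW. On each of the 8 slides the day 110 arrays averaged higher than the day 90 arrays, by 1.69 to 2.37. Ordered by group mean, the day 90 groups came first (LW, LWMS, MSLW, MS) and the day 110 groups next (LW, MSLW, MS, LWMS). The step of 1.31 from MS at day 90 to LW at day 110 was the one step that exceeded the larger SD of the neighbours. In tissue RNA, a change in the share of FKBP5-expressing cells and a change in FKBP5 RNA per cell cannot be told apart.

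The other 4 FKBP5 probes rose by 1.85 to 2.27, and any pair of the 5 correlated at r = 0.88 to 0.98 over the 63 arrays. The sequences of 3 of them, of 60 bases each, are shown because they lie at separate places in the transcript and gave the same answer. The array's annotation puts their starts at bases 979, 797 and 614 of the pig FKBP5 transcript.
A_72_P078706: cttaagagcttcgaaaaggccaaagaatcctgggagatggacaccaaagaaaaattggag
A_72_P476959: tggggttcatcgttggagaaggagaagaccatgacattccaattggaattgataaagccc
A_72_P719403: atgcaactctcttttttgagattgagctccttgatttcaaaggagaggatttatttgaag
They rose by 2.27, 2.11 and 2.24 respectively. Of the 31 day 110 fetuses, 30, 26 and 27 respectively were above every day 90 fetus at these probes, and 25 were at O10720.

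**Figure D2:**
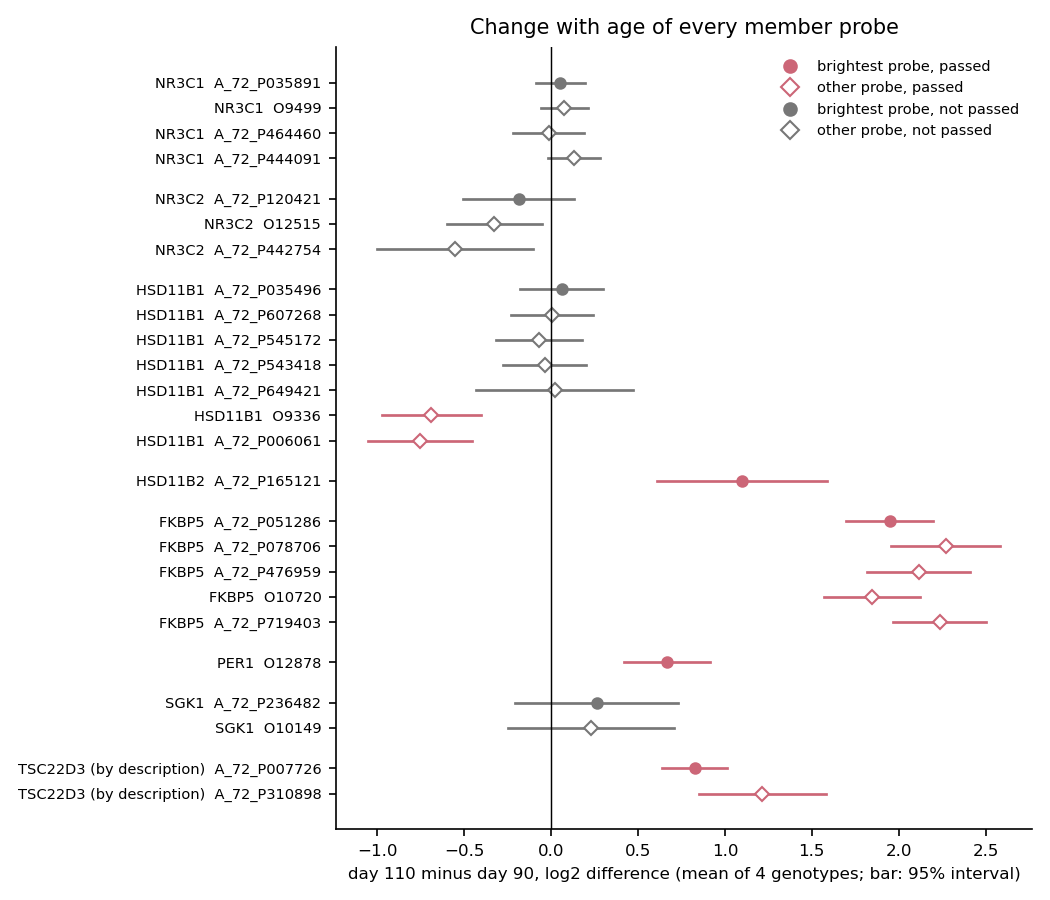
Log2 difference with age, day 110 minus day 90 averaged over 4 genotypes (horizontal axis), of each of the 23 probes and of the 2 probes described as TSC22D3 (vertical axis); bars are 95% intervals and red symbols passed the test. The 5 FKBP5 probes lie at 1.85 to 2.27 and the 4 NR3C1 probes at -0.02 to 0.13.

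PER1, a repressor of the circadian clock with a receptor-responsive promoter, rose by 0.67 (SE 0.12, adjusted p = 1.6e-05, limma), 1.59-fold, at its single probe O12878. LW fetuses ran from 2.24 to 4.49 (median 3.64) at day 90 and from 3.98 to 5.11 (median 4.33) at day 110. LWMS fetuses ran from 3.20 to 3.97 (median 3.54) and then from 3.79 to 5.12 (median 4.34). The ages overlapped in all 4 genotypes, and 10 of 31 day 110 fetuses exceeded every day 90 fetus. MS fetuses ran from 3.07 to 4.01 (median 3.32) and then from 3.39 to 5.22 (median 3.85), and MSLW fetuses from 3.34 to 4.34 (median 3.93) and then from 3.35 to 4.79 (median 4.33). Taken singly, LWMS passed (0.86, adjusted p = 0.0046), with 0.70 in LW, 0.76 in MS and 0.34 in MSLW not passing. The highest MS value was that of fetus 632, the other 6 ending at 4.89, and the MS difference was 0.59 without it. All 8 slides had the higher mean at day 110, by 0.11 to 1.13. Without MS fetus 632 the O12878 difference was 0.62 (adjusted p = 2.9e-05).

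SGK1, a kinase that holds epithelial sodium channels at the cell surface, did not pass for age at either probe, at 0.26 (95% interval -0.21 to 0.73, adjusted p = 0.40, limma) and 0.23, or 0.37 (95% interval -0.06 to 0.81, adjusted p = 0.17) and 0.33 without fetus 632. Its spread between fetuses was much wider at day 110 in the purebreds. At the brighter probe, A_72_P236482, LW fetuses ran from 1.83 to 3.25 (median 2.79, SD 0.51) at day 90 and from 0.47 to 4.44 (median 2.27, SD 1.49) at day 110. MS fetuses ran from 2.62 to 3.54 (median 3.01, SD 0.35) and then from 0.03 to 4.28 (median 3.34, SD 1.74), or from 1.0 (median 3.77, SD 1.39, n = 6) without fetus 632, the lowest. LWMS fetuses ran from 2.58 to 3.41 (median 2.78, SD 0.31) and then from 2.11 to 4.26 (median 3.74, SD 0.69). MSLW was the one genotype in which the spread was not wider at day 110, from 1.51 to 3.66 (median 2.79, SD 0.79) and then from 2.95 to 4.25 (median 3.81, SD 0.49). Of the 31 day 110 fetuses, 14 lay above and 6 below the whole day 90 range, and the 2 probes agreed on this, at r = 0.96 over the arrays. The difference in spread was not tested.

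HSD11B2, which inactivates cortisol, rose by 1.1 (SE 0.24, adjusted p = 0.00023, limma), 2.14-fold, from a dim start. Its probe was well above background on 48 of 63 arrays.
A_72_P165121: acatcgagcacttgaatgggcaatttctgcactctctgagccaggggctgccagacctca
This is the array's single view of HSD11B2, and the sequence is given because no second probe checks it. LW fetuses ran from -5.08 to -3.26 (median -4.77) at day 90 and from -4.46 to -2.76 (median -3.63) at day 110. LWMS fetuses ran from -5.72 to -3.19 (median -4.75) and then from -4.52 to -2.77 (median -3.78), and MSLW fetuses from -5.83 to -3.35 (median -4.94) and then from -4.87 to -2.39 (median -4.10). The ages overlapped in each of these genotypes, and the medians were higher at day 110. MS fetuses ran from -4.80 to -3.21 (median -4.31) and then from -4.00 to 2.21 (median -3.31), the highest being fetus 632, with the next at -1.52. Without fetus 632 the A_72_P165121 difference was 0.91 (adjusted p = 4.8e-05). All 8 slides averaged higher at day 110, by 0.02 to 2.16, and no genotype passed singly (0.91 in LW, 1.76 in MS, 0.73 in LWMS, 0.99 in MSLW). The MS value of 1.76 dropped to 0.99 (SE 0.41) once fetus 632 was left out.

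HSD11B1, the cortisol-regenerating enzyme, gave different answers along its transcript. The brightest probe, A_72_P035496, which starts at base 1285, did not pass (0.06, 95% interval -0.18 to 0.30, adjusted p = 0.73, limma), nor did the probes that start at bases 625, 769, 812 and 1127, all at -0.07 to 0.06. The probes that start at bases 105 and 107 fell by 0.76 (A_72_P006061, adjusted p = 4.4e-05) and by 0.69 (O9336, adjusted p = 8e-05), 1.69-fold and 1.61-fold. Positions are those of the array's annotation, except that of O9336, which was placed by its overlap. The overlapping pairs are shown with the shared bases in capitals, since probes that share bases are not separate evidence.
A_72_P006061: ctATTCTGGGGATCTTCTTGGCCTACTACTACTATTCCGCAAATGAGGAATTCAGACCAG
O9336: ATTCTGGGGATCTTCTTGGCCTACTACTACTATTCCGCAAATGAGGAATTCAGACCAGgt
A_72_P545172: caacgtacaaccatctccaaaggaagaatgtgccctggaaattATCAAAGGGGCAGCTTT
A_72_P607268: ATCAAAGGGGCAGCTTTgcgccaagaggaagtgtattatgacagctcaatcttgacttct
A_72_P543418: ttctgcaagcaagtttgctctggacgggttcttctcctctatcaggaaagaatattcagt
The first pair shares 58 of 60 bases and is in effect 1 measurement of the start of the transcript. The second pair shares 17 bases, and A_72_P543418 overlaps no other probe.

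At O9336, LW fetuses ran from -3.49 to -1.55 (median -2.69) at day 90 and from -3.57 to -2.56 (median -3.03) at day 110. MS fetuses ran from -2.90 to -0.99 (median -2.16) and then from -3.84 to -1.59 (median -2.94). LWMS fetuses ran from -3.17 to -1.56 (median -2.69) and then from -4.30 to -2.52 (median -3.31), and MSLW fetuses from -3.48 to -1.67 (median -2.31) and then from -4.06 to -2.84 (median -3.35). The medians were lower at day 110 in all 4 genotypes, the ranges overlapped, and no genotype passed singly (-0.49 in LW, -0.69 in MS, -0.75 in LWMS, -0.82 in MSLW). All 8 slides averaged lower at day 110 at both probes of the pair. O9336 correlated with A_72_P006061 at r = 0.92 and with the other 5 probes at r = 0.24 to 0.56, while A_72_P607268, A_72_P545172 and A_72_P543418 correlated with each other at r = 0.95 to 0.97. The 2 falling probes were also the dimmest of the 7, well above background on 62 and 59 of 63 arrays.

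**Figure D3:**
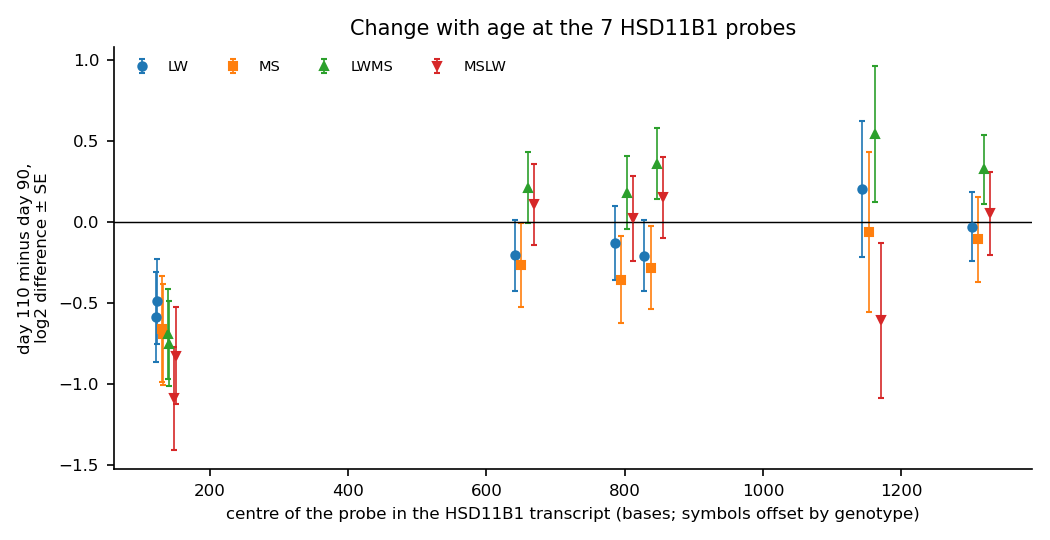
Log2 difference with age ± SE, day 110 minus day 90 (vertical axis), of the 7 HSD11B1 probes by the position of each probe's centre in the transcript (bases, horizontal axis); symbols stand for the 4 genotypes and are set slightly apart. The overlapping pair near the start is below 0 in each genotype, at -0.49 to -1.09, and the other 5 probes scatter around 0.

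At the brightest HSD11B1 probe, group means ± SD at day 90 were 1.94 ± 0.50 in LW, 1.68 ± 0.51 in MS, 1.82 ± 0.44 in LWMS and 1.73 ± 0.53 in MSLW, and at day 110 they were 1.91 ± 0.51, 1.57 ± 0.47, 2.14 ± 0.18 and 1.78 ± 0.41. The MS mean at day 110 was 1.69 ± 0.38 (n = 6) without fetus 632, and the difference with age 0.09 (95% interval -0.15 to 0.33). Outlier spots left 2 arrays without a value at this probe, so the MS group at day 90 and the MSLW group at day 110 had n = 5. No step between neighbouring groups in the order of means exceeded the larger SD. The 95% interval for age was -0.27 to 0.20 at A_72_P543418, which shares no bases with another probe, and -0.43 to 0.47 at A_72_P649421.

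NR3C1, the glucocorticoid receptor itself, did not pass for age at any of 4 probes, whose differences were -0.02 to 0.13. At the brightest, A_72_P035891, the difference was 0.05 (95% interval -0.09 to 0.19, adjusted p = 0.59, limma), the narrowest interval among the brightest probes of the 7 genes. Group means ± SD at day 90 were 0.56 ± 0.21 in LW, 0.44 ± 0.20 in MS, 0.73 ± 0.14 in LWMS and 0.59 ± 0.23 in MSLW. At day 110 they were 0.63 ± 0.30, 0.39 ± 0.46, 0.74 ± 0.25 and 0.77 ± 0.27. Leaving out fetus 632 gave an MS mean of 0.53 ± 0.31 (n = 6) and a difference with age of 0.09 (95% interval -0.04 to 0.22, adjusted p = 0.29, limma). The ages overlapped in each genotype, and no neighbouring groups in the order of means differed by more than the larger SD, with or without that fetus.

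NR3C2, the mineralocorticoid receptor, was lower at day 110 at its 3 probes without passing, at -0.19 (A_72_P120421, adjusted p = 0.37, limma), -0.33 (O12515, adjusted p = 0.051) and -0.55 (A_72_P442754, adjusted p = 0.044). Group medians at the brightest probe, A_72_P120421, lay within -1.93 to -1.64 at day 90 and within -2.23 to -2.18 at day 110, with the full ranges overlapping in each genotype. MS fetus 632 was at 2.08 where no other fetus was above -1.32. Without it the differences were -0.34 (A_72_P120421, adjusted p = 0.0036), -0.44 (O12515, adjusted p = 0.00028) and -0.67 (A_72_P442754, adjusted p = 0.0058), so A_72_P442754 then passed and the other two stayed under the minimum difference. A_72_P442754 was well above background on 42 of 63 arrays. The day 110 arrays averaged lower on 7 of 8 slides at the brighter pair of probes and on 6 at A_72_P442754.

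TSC22D3, the anti-inflammatory leucine zipper protein that is a well-known direct receptor target, was read from the 2 probes whose description names it. A_72_P007726 rose by 0.83 (SE 0.09, adjusted p = 1.1e-10, limma) and A_72_P310898, a dim probe, by 1.22 (adjusted p = 2.3e-07). At A_72_P007726, LW fetuses ran from 0.80 to 1.60 (median 1.16) at day 90 and from 1.47 to 2.08 (median 1.75) at day 110. MS fetuses ran from 0.97 to 2.13 (median 1.64) and then from 2.15 to 2.74 (median 2.55), without overlap. LWMS fetuses ran from 0.72 to 2.28 (median 1.56) and then from 2.09 to 3.05 (median 2.81), and MSLW fetuses from 0.82 to 1.61 (median 1.28) and then from 1.27 to 2.64 (median 2.0). All 8 slides averaged higher at day 110 at both probes, which correlated at r = 0.57. A_72_P310898 was well above background on 35 of 63 arrays.

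Fewer member probes passed for breed than for age. The MS minus LW difference, averaged over both ages, passed for 1 of the 23, a share under the 8.03% of all probes. At day 90 and at day 110 taken singly none passed, against 3.59% and 5.01% of all probes. The difference between breeds did not change with age at any member probe by limma's interaction test at an adjusted p of 0.01, which 0.0173% of all probes passed. The F test over the 8 groups passed for 10 of 23 (28.8% of all probes): the 9 probes that passed for age, each best described by age alone by the lowest BIC, and NR3C1 probe A_72_P464460, best described by genotype alone.

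That NR3C1 probe was the one with a breed difference, and it differed from its gene's other probes in this. It starts at base 2007 of the NR3C1 transcript by the array's annotation, and it is shown beside the probe that starts at base 605.
A_72_P464460: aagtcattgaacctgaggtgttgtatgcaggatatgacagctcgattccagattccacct
A_72_P444091: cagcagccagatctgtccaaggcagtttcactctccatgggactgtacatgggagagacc
At A_72_P464460, LW fetuses ran from -0.71 to 0.38 (median 0.14) at day 90 and from -0.16 to 0.57 (median 0.17) at day 110, and MS fetuses from -0.71 to 0.19 (median -0.40) and then from -1.45 to 0.13 (median -0.43, or -0.29 without fetus 632, the lowest). LWMS fetuses, from MS sows, ran from -0.80 to 0.33 (median 0.14) and then from -1.39 to 0.36 (median -0.30), and MSLW fetuses, from LW sows, from -0.33 to 0.63 (median -0.03) and then from -0.02 to 0.79 (median 0.32). At day 110 the groups from MS sows had the lower medians, with overlapping ranges.

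For A_72_P464460 the MS minus LW difference was -0.55 (SE 0.15, adjusted p = 0.0049, limma) over both ages, -0.37 at day 90 and -0.74 at day 110 (adjusted p = 0.011). Without MS fetus 632, which had the lowest level of 63, the A_72_P464460 difference over both ages was -0.48 (adjusted p = 0.012) and no longer passed. The call held in 7 of 12 alternatives. It was also lost with the authors' matrix (-0.50), normexp background correction (-0.49) and array weights (-0.43), which left it just under the minimum difference, and with median centring (-0.51, adjusted p = 0.060). The breed of the sow, compared as MS minus LW over both sire breeds at an adjusted p under 0.05, gave -0.45 (SE 0.10, adjusted p = 0.0012), and -0.41 (adjusted p = 0.0018) without fetus 632, and passed in 10 of 11 alternatives, median centring (-0.34, adjusted p = 0.059) being the exception. Sire breed gave -0.10 (adjusted p = 0.67, limma). The sow breed test counted the litter mates of a sow as independent, so its p-values can be too small. The probe correlated with the other 3 NR3C1 probes at r = 0.08 to 0.37, where A_72_P035891 and O9499 correlated at r = 0.93, and the other 3 did not pass for sow breed, the brightest being at -0.06 (95% interval -0.20 to 0.08).

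Sow breed passed for 2 of the 23 probes and for 15.9% of all probes, with litter mates counted as independent throughout. The second was the brightest FKBP5 probe, A_72_P051286, higher in fetuses of MS sows by 0.38 (SE 0.12, adjusted p = 0.029, limma). At day 110 its medians were 0.37 in MS and 0.85 in LWMS fetuses, against -0.11 in LW and 0.07 in MSLW fetuses, with overlapping ranges, and 7 of 8 slides averaged higher with MS sows. It passed in all 11 alternatives. The other 4 FKBP5 probes were at 0.03 to 0.34 and did not pass, though A_72_P078706 did in 4 of 11 alternatives and A_72_P476959 in 1. Without fetus 632 the A_72_P051286 difference was 0.43 (adjusted p = 0.0075). Outside the 23, the TSC22D3-described probe A_72_P007726 was higher with MS sows by 0.52 (adjusted p = 3.4e-05), on 8 of 8 slides, and its MS minus LW difference was 0.54 (adjusted p = 0.002), while its sire breed difference was 0.02. Sire breed passed for none of the 23 by limma at an adjusted p of 0.05 (6.97% of all probes), and neither did sow breed by age (0.388% of all probes).

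Genes around the 8 members were counted from lists, each gene by its brightest probe. Of 22 glucocorticoid-induced genes measured, 9 passed as higher at day 110 and none as lower. Over the 8694 named genes with a measured probe, 5.9% rose and 7.29% fell. The lists were chosen with earlier results of these data known, so this comparison is not independent evidence. In the list, NDRG1 (-0.46, adjusted p = 1.6e-06, limma), RGS2 (-0.32) and FOXO1 (-0.27) were lower and NFKBIA (0.36) was higher. These had an adjusted p under 0.01 and stayed under the minimum difference. The median difference was 0.44 in the list and -0.02 over all named genes. The largest value was that of G6PC, the enzyme that releases free glucose in gluconeogenesis, at 5.08 (SE 0.25, adjusted p = 3.4e-24, limma), with its probe well above background on 14 of 32 arrays at day 90 and 30 of 31 at day 110. The day 90 values that were not well above background leave the size of that rise uncertain, and raising each value to at least the dimmest level well above background on its array gave 4.54. PDK4, which turns cells from glucose to fatty acid oxidation, rose by 2.08 (SE 0.18) and KLF9, a receptor-induced transcription factor, by 1.52 (SE 0.12), at 11 of 11 probes each. PCK1, the first committed enzyme of gluconeogenesis, rose by 1.45 (SE 0.19). The others that passed were CRISPLD2, KLF15, ZBTB16, DDIT4 and CDKN1A, at 0.66 to 1.08.

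**Figure D4:**
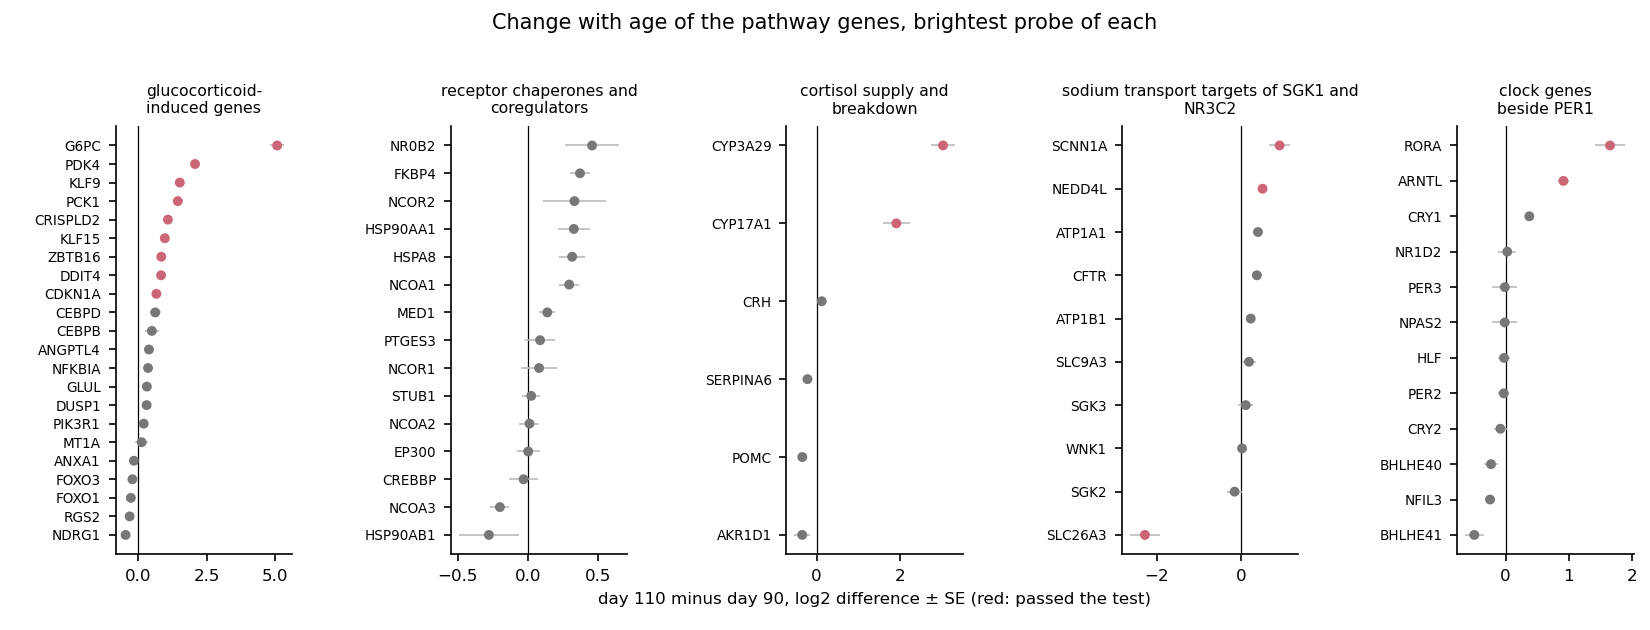
Log2 difference with age ± SE, day 110 minus day 90 (horizontal axis; scales differ between panels), of the brightest probe of each measured gene in 5 pathway lists; red points passed the test. In the glucocorticoid-induced list 9 of 22 genes passed, all higher, and in the chaperone and coregulator list none of 15 did.

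Of 15 chaperones and coregulators that hold or assist the receptor, none passed for age by limma, and 7 had an unadjusted p under 0.05. The list's median difference was 0.09. Of these genes FKBP4, a co-chaperone that favours hormone binding (0.37, adjusted p = 1.3e-05), the coactivator NCOA1 (0.29) and the chaperone HSPA8 (0.31) had an adjusted p under 0.01 and stayed under the minimum difference. The corepressor NR0B2 was at 0.46, and at 0.56 without fetus 632, where it passed. The difference between this list and the glucocorticoid-induced list was not tested. Of 6 measured genes of cortisol supply and breakdown, 2 rose. CYP3A29, a pig steroid and drug hydroxylase, rose by 3.02 (SE 0.28), and CYP17A1, a steroid-synthesising hydroxylase, was well above background on 3 of 32 arrays at day 90 (on none of the MSLW arrays) and on 17 of 31 at day 110 (adjusted p = 2e-06). Of 10 genes of SGK1- and NR3C2-regulated ion transport, the sodium channel subunit SCNN1A (0.91, well above background on 9 of 32 and 19 of 31 arrays, or 0.52 with dim values raised as for G6PC) and its ubiquitin ligase NEDD4L (0.50, just under the minimum without fetus 632) rose, and the chloride exchanger SLC26A3 fell by 2.29 (SE 0.36). Of 12 clock genes beside PER1, RORA (1.66) and ARNTL (0.92) rose and none passed as lower. BHLHE41 (-0.497, adjusted p = 0.0053, limma) was lower and CRY1 (0.38) higher at an adjusted p under 0.01, both under the minimum difference.

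Sow breed passed in 6 of the 22 glucocorticoid-induced genes, 5 higher and 1 lower with MS sows, where 8.59% of named genes were higher and 4.76% lower. G6PC was higher by 1.38 (SE 0.25), PCK1 by 0.60, ANGPTL4 by 0.47 and CDKN1A by 0.41, ANXA1 was higher by 0.20, and FOXO1 was lower (-0.41). The same 6 passed without fetus 632. With MS sires FOXO1 was lower as well (-0.41, adjusted p = 0.00072, limma). The others did not pass for sire breed, with G6PC at 0.64 (adjusted p = 0.12, limma). Of 35 cell type markers tested, 6 passed for sow breed as well: the endothelial receptor KDR (-0.52) and the neuronal UCHL1 (-0.32) were lower with MS sows, and CD163 (0.48), the glial S100B (0.44), the red cell SLC4A1 (0.31) and the epithelial keratin KRT8 (0.21) were higher. KDR (-0.47) and S100B (0.32) also passed for sire breed, in the same direction. Without fetus 632, LCT (0.55) and ANPEP (0.43) also passed for sow breed. The part of the cell types behind these markers in the sow breed differences was not tested. All these sow breed tests counted litter mates as independent. Among the other lists AKR1D1, the reductase that clears cortisol, was lower with MS sows by -1.27 and also lower with MS sires by -1.20. The AKR1D1 probe was dim, with a mean of -4.26 with LW sows and -5.53 with MS sows. At both ages many arrays did not have it well above background, which leaves the size of both AKR1D1 differences uncertain.

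Cell type markers moved with age as well. Of 6 epithelial markers, LCT, the lactase of enterocytes, was higher at day 110 by 1.37. The enterocyte peptidase ANPEP was lower by -0.59 (-0.49, not passing, without fetus 632). EPCAM (0.44), CDH1 (0.44) and KRT8 (0.26) were higher at an adjusted p under 0.01 (limma) and stayed under the minimum difference. FABP2 was at 0.13, and the median of the 6 was 0.35. Of 6 smooth muscle markers ACTA2 was lower by -0.55, and of 5 fibroblast markers COL1A1 by -0.81. Under the minimum difference, DCN (-0.49) and COL3A1 (-0.36) were lower at an adjusted p under 0.01, with PDGFRA at -0.22 and LUM at 0.05. Of 5 enteric neuron and glia markers, the neuronal ELAVL4 and UCHL1 were lower by -0.63 and -0.64, and none of 4 endothelial markers passed by limma. The red cell gene HBB was lower by -1.68, with SLC4A1 at -0.02. Of 6 immune markers the macrophage marker CD163 was higher by 0.94, while the pan-leukocyte PTPRC was at 0.00, CD3E at 0.31, CD14 at 0.37, CD68 at -0.32 and CD79A at -0.53, none of these passing. The part of cell makeup in the age differences of FKBP5, PER1 and HSD11B2 was not tested.

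Correlations between the members were next taken within groups. Levels were centred on the group mean and all 21 pairs of the 7 brightest probes were compared (Pearson r, two-sided permutation of fetuses within groups, 100000 draws, Benjamini-Hochberg over the 21). In all, 17 pairs had an adjusted p under 0.05, also with slide and share of probes detected as terms, and 13 without MS fetus 632. The permutations, here and below, counted litter mates as independent, so their p-values can be too small. NR3C1, FKBP5 and SGK1 were high in the same fetuses: NR3C1 with SGK1 at r = 0.69 (rho = 0.57), NR3C1 with FKBP5 at r = 0.61 (rho = 0.49) and FKBP5 with SGK1 at r = 0.59 (rho = 0.36). NR3C2 was low where SGK1 was high (r = -0.73, rho = -0.71, permutation adjusted p = 5.25e-05, at 1e-05 before adjustment the smallest the draws can give), and so was PER1 (r = -0.60, rho = -0.68). Such values are common on this array. For NR3C2 with SGK1, 2.31% of all probes correlated as strongly with NR3C2 and 6.94% with SGK1, and for NR3C1 with SGK1 the shares were 1.12% and 9.79%. Over the 17 pairs these shares ran from 0.506% to 48.3% (median 9.83%).

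FKBP5 and PER1, which both rose with age, did not vary together within groups (r = -0.09, rho = -0.05, permutation adjusted p = 0.62). Leaving out the 2 fetuses farthest on the first gene left r at -0.70 for NR3C2 with SGK1, 0.60 for NR3C1 with SGK1 and 0.51 for NR3C1 with FKBP5. The pair of NR3C2 and HSD11B2 rested on fetus 632, with r = 0.64 in all fetuses and 0.19 without it (permutation adjusted p = 0.22). The summed epithelial markers moved with the same genes, as 14 relations with marker sums, chosen after the values were seen, showed: SGK1 at r = 0.83 (rho = 0.80, permutation adjusted p = 4.7e-05, r = 0.81 without the 2 farthest fetuses), NR3C1 at 0.65, FKBP5 and HSD11B1 at 0.59, NR3C2 at -0.50 and PER1 at -0.44. The summed smooth muscle markers ran the other way for SGK1 (r = -0.47), FKBP5 (-0.51) and NR3C2 (0.51). With that sum NR3C1 was at -0.33 and HSD11B2 at 0.29. PER1 (0.22, permutation adjusted p = 0.10) and HSD11B1 (0.08, permutation adjusted p = 0.54) showed no clear relation to it. The part of these marker sums, set mainly by their brightest probes, in the correlations between members was not tested.

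**Figure D5:**
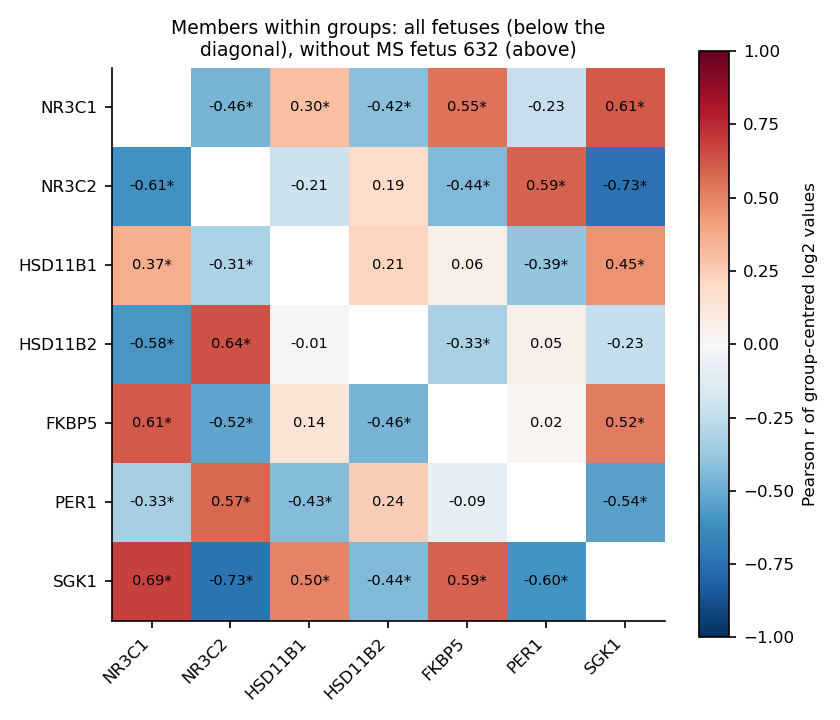
Pearson r of group-centred log2 levels for each pair of the 7 genes (both axes), in all fetuses below the diagonal and without MS fetus 632 above it; stars mark adjusted p under 0.05. NR3C2 with SGK1 is at -0.73 on both sides of the diagonal, and NR3C2 with HSD11B2 goes from 0.64 to 0.19.

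Over the 63 arrays without centring, the named genes most like FKBP5 were G6PC (r = 0.94), EPB41L3 (0.93) and SMPDL3B (0.93), and those most like SGK1 were MMP25, TARSL2 and PLBD1 (0.92 each). PER1 was most like PITPNA, EGFR and ELMO2 (0.80 each), and HSD11B1 most like MDH1 (0.80), ATPIF1 (0.79) and GSTK1 (0.78). For NR3C1 they were SEC23A, ITIH1 (0.76 each) and SLC2A2 (0.75), at 0.67 to 0.68 without fetus 632. For NR3C2 they were ST6GALNAC6 (0.87), RASL12 (0.86) and ENDOD1 (0.84), at 0.61 to 0.66 without it, and for HSD11B2 QPCTL, TSPAN1 and PPARG (0.75 each), at 0.61 to 0.71 without it. The probe described as TSC22D3 was most like CCND3 (0.90), MYD88 and CSNK2A1 (0.88 each). These are descriptions over arrays that share age, genotype and slide.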

How the data were processed

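Jejunal RNA of 63 fetuses was hybridised to one-colour Agilent arrays of 61625 spots (60305 probes after 1319 control spots were left out, spots of a probe averaged), 8 slides of 7 or 8 arrays. The authors deposited scanner files with background-subtracted processed intensity (Agilent Feature Extraction 10.10.1.1, per the submitters' processing notes) and a matrix of log2 values, the latter used here as an alternative. From the intensity, log2 minus the array's 75th percentile was computed. Outlier spots were set to missing. A probe was tested if well above background on at least 75% of arrays of at least 1 group. No spot was saturated, and the number of arrays limits the precision.

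Group means for the 8 genotype and age groups were fitted across all probes with limma 3.58.1 (R 4.3.3) and eBayes, with Benjamini-Hochberg adjustment. The study's methods used the sow as a random effect, which could not be fitted without that label. Age and breed differences needed 0.01 or less after adjustment and 0.5 or more on the log2 scale, the interaction and the F test 0.01, and sow and sire breed 0.05. Each gene was represented by its brightest probe. Of each list, up to 4 genes that passed with the largest change were named, and of all named genes the 3 most like each member by Pearson r; other list and marker genes, HOXD10 and GCG were named after their values were seen. Correlations used scipy 1.17.1. The fit was tested on simulated data. Members and lists were chosen with earlier results of these data known, and 1 gene of the clock list is not reported here. Alternatives were the authors' matrix, normexp with offset 50, quantile normalisation, median centring, other dim-probe filters, slide as a block, array weights, detection share as a covariate, purebreds alone, adjusted p alone, leaving out LW fetuses 484 and 469 and, added after the data were seen, leaving out MS fetus 632 (lists included) and raising dim values of list genes.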

Additional observations from a re-analysis of the deposited data

Results flagged for a closer look

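In 6 of 56 sets (the brightest probe of each of 7 genes in each of 8 groups) the highest or lowest fetus lay apart from the rest by Dixon's criterion at the 95% level, where chance alone marks about 5% of such sets. MS fetus 632 at day 110 was high for HSD11B2, at 2.21 against a group median of -3.31 and a next value of -1.52, and for NR3C2, at 2.08 against a median of -2.18 and a next value of -1.34. LWMS fetus 609 at day 110 had the lowest FKBP5 of its group, at -0.77 against a median of 0.85 and a next value of 0.40, and still lay above every day 90 fetus. LW fetus 557 at day 110 had the highest PER1, at 5.11 against a median of 4.33. MSLW fetus 498 at day 90 had the highest HSD11B2, at -3.35 against a median of -4.94. LWMS fetus 509 at day 90 had the lowest NR3C1, at 0.38 against a median of 0.76.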

How the results depend on the processing

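No member difference that passed changed sign under any alternative, while 69 of 243 that did not pass did so under at least 1. The count for age over the 4 genotypes was 7 to 10 of the 23 probes, against 9, and the 5 FKBP5 probes, HSD11B2 and PER1 passed in each of 11 alternatives. The HSD11B1 probes near the transcript start passed in 10 (O9336) and 9 (A_72_P006061) of 11, at -0.41 and -0.35 with normexp. PER1 in LWMS alone did not pass with the authors' matrix or quantile normalisation. For MS minus LW over both ages, 1 member probe passed, 0 with the authors' matrix, normexp, median centring or without fetus 632, and 6 with array weights (4 FKBP5 and both SGK1 probes, the NR3C1 probe no longer among them). At day 110 none passed, 1 with the authors' matrix, slide as a block, detection share or without LW fetuses 484 and 469, and 4 with array weights. For sow breed 2 passed, 3 with the authors' matrix, median centring (FKBP5 A_72_P078706 and HSD11B2 in, NR3C1 A_72_P464460 out) or without LW fetuses 484 and 469, and 6 with array weights. For sire breed none passed, 1 each with slide as a block, array weights, without fetuses 484 and 469 and without fetus 632, and for sow breed by age 1 with array weights. The cause was not tested. Over all probes, the age count was 5569, and 3164 with normexp, and array weights moved MS minus LW over both ages from 3254 to 5825, day 90 from 1454 to 2860, day 110 from 2029 to 5879, sow breed from 6446 to 12844, sire breed from 2824 to 6103 and age in MS from 1285 to 4281. No paired analysis was possible because the labels give no replicate numbers shared between groups. Leaving out each fetus in turn was not run, the groups being larger than 5.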
